A study of Mus musculus with 9 samples.

Results

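The comparison described here set 3 VilCre-Ripk3fl/fl libraries against 3 WT libraries of mouse small intestine, 6 of the 9 libraries of the series. The libraries were chosen by their titles and column names, and every gene that passed a filter on low counts was tested anew from the deposited counts. Tissue came from C57BL/6 mice of 8 weeks with acute graft-versus-host disease (GVHD), a state in which transplanted donor immune cells attack the host, and all groups had it. In VilCre-Ripk3fl/fl the loxP-flanked Ripk3 gene is removed by Cre recombinase under the villin promoter, so the deletion is meant for intestinal epithelial cells and leaves Ripk3 in other host cells. WT mice were wild type. No group of the series carries Cre alone or the loxP-flanked gene alone, so their part cannot be told apart from the loss of Ripk3. The remaining 3 libraries, Ripk3-KO, carried a whole-body deletion and served to estimate the spread and as a reference for named genes. The labels do not give the genotype of the donor cells, the conditioning or the time after transplantation. Whether the 3 libraries of a genotype are 3 animals is also not stated, and the design text speaks of duplicated samples. All p-values therefore measure only how far these libraries differ, which may be technical. The question addressed was which intestinal transcripts differ in GVHD between VilCre-Ripk3fl/fl and WT.

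RIPK3 is a kinase that, once engaged by RIPK1, ZBP1 or TRIF (encoded by Ticam1), phosphorylates the pore-forming protein MLKL and so starts necroptosis, a lytic form of regulated cell death. Caspase-8 with FADD and cFLIP restrains this route. RIPK3 also takes part in inflammatory signalling that does not need cell death. In intestinal GVHD, donor T cells release interferon-gamma, which acts through JAK1 and JAK2 on epithelial cells, and stem cells and Paneth cells of the crypt are known targets of the disease.

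Total counts were between 27810868 and 32225648 in WT and between 25375499 and 29410940 in VilCre-Ripk3fl/fl. Levels are given as CPM, counts scaled to a common library size with TMM factors, and 3 counts in a library correspond to 0.0902 to 0.127 CPM in these 6 libraries, a floor that covers counting error only. All 7 defining epithelial markers were present in each library, for instance Vil1 at 1813, 1797 and 1746 CPM in WT and 1945, 2184 and 2154 in VilCre-Ripk3fl/fl. Markers of the upper small intestine were also present (Gata4 at 145 ± 5.45 and 151 ± 4.08 CPM, SD, n = 3), while the ileal bile acid binding protein Fabp6 was at 1.02 ± 0.104 and 1.07 ± 0.374 CPM. On the first principal component of log2 CPM (51.2% of variance) the WT libraries had scores of -53.6 to -53.5 and those of VilCre-Ripk3fl/fl 12 to 14.4. Spread between libraries was larger in VilCre-Ripk3fl/fl: over the 10255 genes with a mean of at least 5 CPM in each group, the median SD was 6.45% of the mean there and 4.22% in WT.

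Transcripts of neighbouring tissues moved with genotype. The 6 defining exocrine pancreas markers were all higher in VilCre-Ripk3fl/fl, among them the protease precursor Ctrb1 at 3755, 3712 and 3279 CPM against 609, 596 and 613 in WT, and the lipase Pnlip at 1920.1, 1891 and 1929.8 against 193, 193 and 194. Summed over the 39 tested pancreatic acinar genes, of which 37 rose and 1 fell, the level was 40698 to 42832 CPM against 9585 to 9799 in WT. Over all genes tested, 27.2% rose and 28.4% fell, and the counts of this paragraph are to be read against these shares. Insulin transcripts were near the floor in WT and present in VilCre-Ripk3fl/fl, with Ins2 at 21, 22 and 18.8 CPM and Ins1 at 10.1, 9.08 and 7.79, from 1599 and 694 counts against 6 and 1 in all WT libraries. Adipocyte genes rose in 19 of 20 cases (summed 647 to 659 CPM against 415 to 429), and smooth muscle genes in 18 of 20 with 1 lower (6734 to 6978 against 3836 to 3894). No defining marker of these 4 tissues was at 0 in either group. Of the stomach markers Gkn2 and Atp4b had 0 counts in VilCre-Ripk3fl/fl and 8 and 2 counts in WT. The stomach and duodenal gland list had 2 higher (22.2%) and 4 lower (44.4%) of 9, too few genes to be read as a result about the list. The part of these tissues in the results below was not tested. A fit without the acinar, islet and adipocyte genes called 9140 genes, and 9111 of the calls reported here were also made by it in the same direction. Dropping these genes leaves the counts of all others as they were. The fit therefore cannot show what these tissues add to genes that they share with gut, and smooth muscle genes were not dropped.

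**Figure D1:**
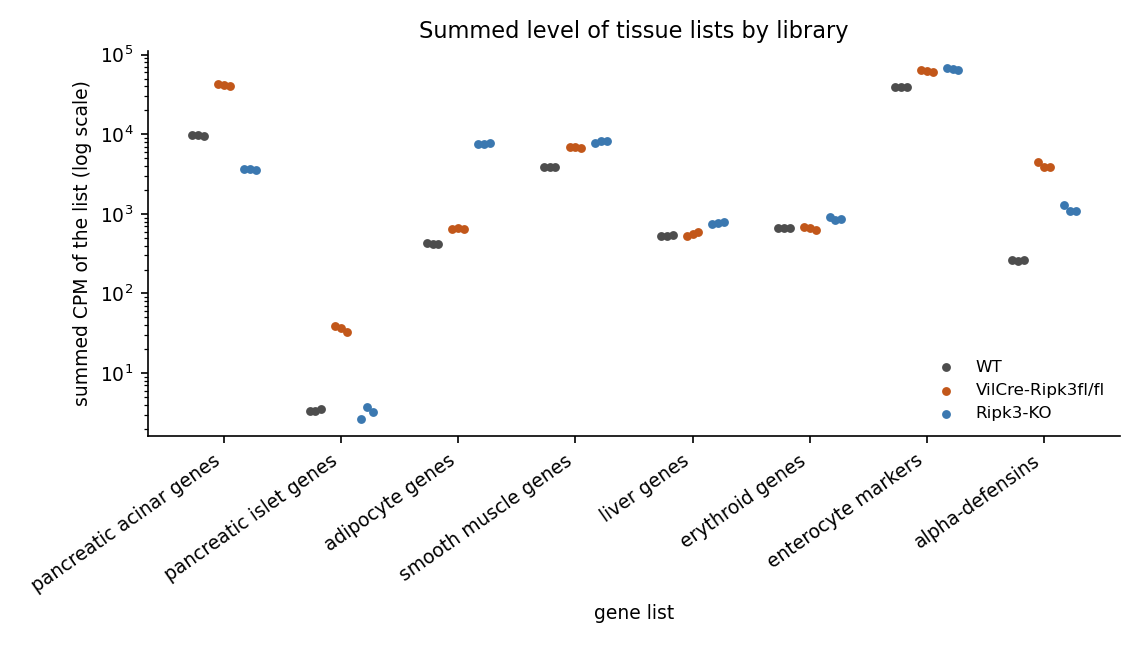
Summed CPM (log axis) of gene lists in each of the 9 libraries, 1 point per library, coloured by genotype. The pancreatic acinar and islet lists sit higher in all 3 VilCre-Ripk3fl/fl libraries than in WT, while the erythroid list lies at similar levels in these groups.

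Ripk3 itself checks the labels. Ripk3 (ENSMUSG00000022221, mm10 chromosome 14, 55784996 to 55788857) was at 113, 114 and 112 CPM in WT replicates 1 to 3, at 5.54, 7.36 and 6.46 in VilCre-Ripk3fl/fl and at 3.88, 3.57 and 3.40 in Ripk3-KO. The WT libraries lay far above those of either deletion. VilCre-Ripk3fl/fl was 17.5-fold lower than WT (log2 fold change -4.12, SE 0.0851, adjusted p = 5.24e-23). Between the deletions the level was higher in VilCre-Ripk3fl/fl (log2 fold change 0.84, adjusted p = 7.85e-07). Which exons are deleted is not given in the sources used here, and the source of the remaining reads was not tested.

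Across the 16539 genes tested with edgeR's quasi-likelihood test, 9201 (55.6%) passed a Benjamini-Hochberg adjusted p of 0.05 and are said to have risen or fallen. Of these, 4505 were higher (27.2% of genes tested) and 4696 lower (28.4%) in VilCre-Ripk3fl/fl. The median size of a called change was 1.47-fold, and the median log2 fold change of all genes was 0.02. By at least 2-fold, 1497 genes were higher (9.05%) and 926 lower (5.6%), and 179 and 134 changed by at least 8-fold. The 3 libraries of one genotype all lay on the same side of the 3 of the other for 10152 genes (61.4%). A list whose members were called at about these shares gives no result about its members, and each list below is read against them. For every called gene whose 6 values are printed in full below, the libraries of the genotypes did not overlap.

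**Figure D2:**
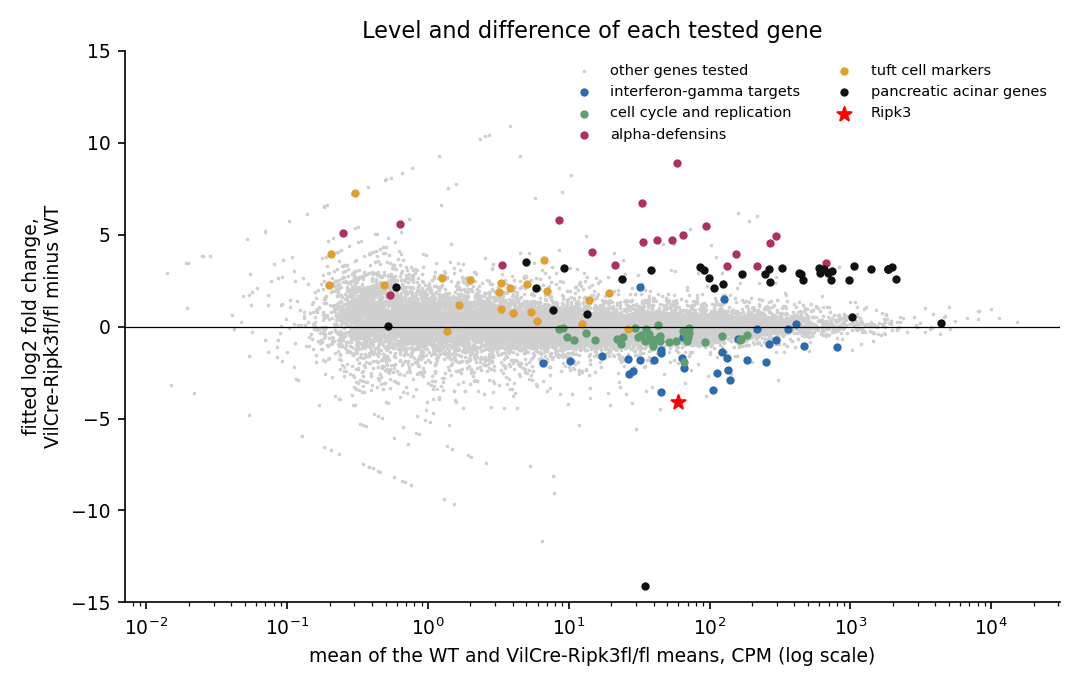
Fitted log2 fold change of VilCre-Ripk3fl/fl minus WT (vertical) against mean CPM (horizontal, log axis) for all 16539 genes tested, 1 point per gene, with 5 lists in colour and Ripk3 as a star. Interferon-gamma targets lie mostly below 0 and alpha-defensins, tuft cell markers and pancreatic acinar genes mostly above, and the black point near the bottom is Amy2a1, a near-identical copy of other amylase genes whose counts are uncertain.

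Of 16 genes of the necroptosis machinery, 9 fell and 2 rose (median log2 fold change -0.17). Apart from Ripk3, the changes were under 2-fold except in Tnfaip3, the ubiquitin-editing enzyme A20, which was at 76.6, 73.1 and 67.2 CPM in WT and 32.9, 30.7 and 34.7 in VilCre-Ripk3fl/fl (log2 fold change -1.14, SE 0.0703, adjusted p = 5.14e-13). The effector Mlkl was at 58.8, 54.4 and 55 CPM in WT and 29.4, 29.5 and 29.4 in VilCre-Ripk3fl/fl, a 1.91-fold fall with no overlap of the libraries (log2 fold change -0.93, SE 0.0721, adjusted p = 4.86e-11). Upstream genes fell less: the TNF receptor Tnfrsf1a 1.35-fold, the deubiquitinase Cyld 1.28-fold and Casp8 1.18-fold (adjusted p = 4.15e-08, 1.09e-04 and 2.08e-04). The ubiquitin ligases Birc2 and Birc3, which keep RIPK1 in survival signalling, went opposite ways, with Birc2 rising 1.18-fold and Birc3 falling 1.59-fold. Ticam1, the adaptor of Toll-like receptors that is also called TRIF, rose 1.29-fold. The adaptor Fadd (adjusted p = 0.0997), Cflar (0.567), Tradd (0.0828), Traf2 (0.139) and Spata2 (0.589) did not pass.

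Genes of pyroptosis, in which gasdermins form pores, went mostly the other way from those of necroptosis: 14 of 23 rose and 4 fell (median 0.30). The gasdermin C genes stood out. Gsdmc4 was at 4.78, 4.52 and 4.99 CPM in WT and 104, 109 and 109.7 in VilCre-Ripk3fl/fl (22.6-fold, log2 fold change 4.50, SE 0.0751, adjusted p = 1.49e-24), Gsdmc2 rose 22.7-fold and Gsdmc3 29.6-fold. These neighbouring genes resemble each other closely, so reads may be split among them. The inflammasome sensor Nlrp9b, of intestinal epithelium, rose 2.49-fold and the cytokine Il18 2.05-fold (from 28.7 ± 1.30 to 58.9 ± 2.56 CPM, SD, n = 3). In the other direction, the DNA sensor Aim2 was at 20.8, 19.5 and 19.0 CPM in WT and 2.83, 4.39 and 4.20 in VilCre-Ripk3fl/fl (5.19-fold lower, adjusted p = 3.62e-12), and Il1b fell 3.64-fold. Casp1 was at 120.3 ± 4.25 and 125 ± 2.64 CPM and did not pass (adjusted p = 0.40). Apoptosis and p53 genes had 5 higher and 11 lower of 29 (median -0.04), against 27.2% higher and 28.4% lower over all genes, with the caspase Casp6 rising 1.45-fold. Without WT replicate 3 or VilCre-Ripk3fl/fl replicate 2, 7 of these fell.

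The interferon-gamma pathway was lower from the ligand to the kinases that carry its signal. Ifng, released by T and NK cells, was at 3.04, 3.64 and 3.40 CPM in WT and 0.381, 0.305 and 0.215 in VilCre-Ripk3fl/fl (11.2-fold lower, log2 fold change -3.48, SE 0.385, adjusted p = 3.08e-08). Every WT library lay above every VilCre-Ripk3fl/fl library, and the lower values rest on 23 counts in all, against 311 in WT. Of the 16 pathway genes 12 fell and 1 rose (median -0.72). Among the inputs that induce Ifng, the interleukin-18 receptor chain Il18rap fell 6.41-fold, the interleukin-12 receptor chain Il12rb1 4.02-fold and the T cell transcription factor Tbx21 2.84-fold, whose call was lost without WT replicate 3 (adjusted p = 0.0566) or VilCre-Ripk3fl/fl replicate 1 (0.0649). The receptor chains split: Ifngr1 fell 1.14-fold, whereas Ifngr2 rose 1.38-fold (adjusted p = 6.02e-09). The kinases Jak1 and Jak2 fell 1.22-fold and 1.16-fold. The transcription factor Irf1 was at 571, 581 and 568 CPM in WT and 386, 413 and 408 in VilCre-Ripk3fl/fl (1.43-fold lower, adjusted p = 2.78e-10). The feedback inhibitor Socs1 fell furthest of the downstream members, from 40.3 ± 0.170 to 9.32 ± 0.676 CPM (4.33-fold, adjusted p = 1.63e-15). Ptpn2, Stat4 and Il12rb2 did not pass (adjusted p = 0.217, 0.738 and 0.275). In whole tissue, fewer cells of a type and less RNA per cell cannot be told apart.

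Targets of interferon-gamma fell almost throughout, 30 of 33 lower and 3 higher, with a median log2 fold change of -1.69. The T cell attracting chemokine Cxcl9 was at 192, 193 and 193 CPM in WT and 19.1, 15.9 and 18.3 in VilCre-Ripk3fl/fl (10.8-fold lower, log2 fold change -3.44, SE 0.0699, adjusted p = 3.87e-23), and its relative Cxcl10 at 80.6, 84.5 and 83.9 and 7.23, 6.87 and 7.07 (11.8-fold lower). Ido1, which breaks down tryptophan, was at 245, 241 and 252 and 34.3, 34.2 and 30.7 CPM (7.44-fold lower, adjusted p = 1.17e-22). These 3 genes differed far beyond the spread within either genotype. The guanylate-binding proteins and immunity-related GTPases, which attack vacuoles of intracellular microbes, fell together: Gbp2 was at 231, 222 and 223 CPM in WT and 42.4, 43.6 and 44.6 in VilCre-Ripk3fl/fl, and Iigp1 at 185, 202 and 189 and 33.3, 31.3 and 35.2. Gbp5 fell 5.31-fold, Gbp7 3.33-fold, Irgm1 3.52-fold, Igtp 2.10-fold and Irgm2 1.62-fold, members that were chosen after their values were seen. Reads may be split between near-identical Gbp copies. Of the immunoproteasome subunits, Psmb8 and Psmb9 fell (log2 fold change -0.16 and -0.13, adjusted p = 0.00913 and 0.0226). Psmb10 was 1.11-fold higher (adjusted p = 0.0158, but 0.111 without WT replicate 2). The apolipoprotein L genes Apol9a and Apol9b went against the list: Apol9a was at 69.1, 68.7 and 63.4 CPM in WT and 200.3, 186 and 175 in VilCre-Ripk3fl/fl (2.79-fold higher, adjusted p = 1.83e-17), and Apol9b rose 4.54-fold. They are near-identical copies, so their counts are uncertain.

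Promoters of 4 targets that fell and of Apol9b, which rose, are shown because interferon signals reach genes through short DNA elements. The elements searched, on both strands, were the gamma-activated site pattern (TTC, any 3 bases, GAA) and the interferon-stimulated response pattern (GAAA, any 2 bases, GAAA). Sequences are the 250 bases before the RefSeq start (GRCm38.p6, the same build as mm10), written 5′ to 3′ along the gene, with matches to either pattern in capitals.
Gbp5 (chr3:142496684-142496933, plus strand): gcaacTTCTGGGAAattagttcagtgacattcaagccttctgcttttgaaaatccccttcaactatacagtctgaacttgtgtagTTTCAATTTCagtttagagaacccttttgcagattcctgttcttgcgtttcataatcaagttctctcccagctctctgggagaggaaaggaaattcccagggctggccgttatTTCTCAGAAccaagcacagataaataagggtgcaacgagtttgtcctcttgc
Gbp7 (chr3:142530086-142530335, plus strand): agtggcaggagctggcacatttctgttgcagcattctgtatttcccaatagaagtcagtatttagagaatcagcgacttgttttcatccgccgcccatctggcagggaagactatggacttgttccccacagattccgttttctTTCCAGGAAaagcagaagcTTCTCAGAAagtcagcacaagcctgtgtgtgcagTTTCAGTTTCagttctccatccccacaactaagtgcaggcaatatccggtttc
Irgm1 (chr11:48871421-48871670, minus strand): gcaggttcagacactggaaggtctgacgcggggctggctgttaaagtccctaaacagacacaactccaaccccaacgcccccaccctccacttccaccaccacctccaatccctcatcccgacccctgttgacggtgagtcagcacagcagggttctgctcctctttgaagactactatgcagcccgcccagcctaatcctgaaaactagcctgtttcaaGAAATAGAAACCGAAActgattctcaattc
Cxcl10 (chr5:92348890-92349139, minus strand): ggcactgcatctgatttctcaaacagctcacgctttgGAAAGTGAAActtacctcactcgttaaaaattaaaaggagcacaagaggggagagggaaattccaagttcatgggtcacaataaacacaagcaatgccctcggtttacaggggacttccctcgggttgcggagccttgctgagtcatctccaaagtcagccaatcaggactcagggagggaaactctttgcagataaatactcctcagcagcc
Apol9b (chr15:77728822-77729071, plus strand): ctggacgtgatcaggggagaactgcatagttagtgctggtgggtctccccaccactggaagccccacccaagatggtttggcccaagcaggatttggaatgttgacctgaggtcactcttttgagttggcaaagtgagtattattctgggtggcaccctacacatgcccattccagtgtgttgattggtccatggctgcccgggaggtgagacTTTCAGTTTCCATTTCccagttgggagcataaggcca
Gbp5 and Gbp7 each held 2 gamma-activated matches and 1 response pattern match. Irgm1 and Apol9b each held 2 overlapping response pattern matches, and Cxcl10 held 1. Of the 33 tested targets 20 had a promoter in the table, and 14 of these (70.0%) held at least 1 of the patterns, against 11.1% of all 27025 genes with a promoter there. Gbp copies share sequence, so these are not independent promoters. Apol9a also held 2 response pattern matches. Cxcl9 held neither pattern in this window, which says only that these letters are not there. A match is a description and not a binding site.

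**Figure D3:**
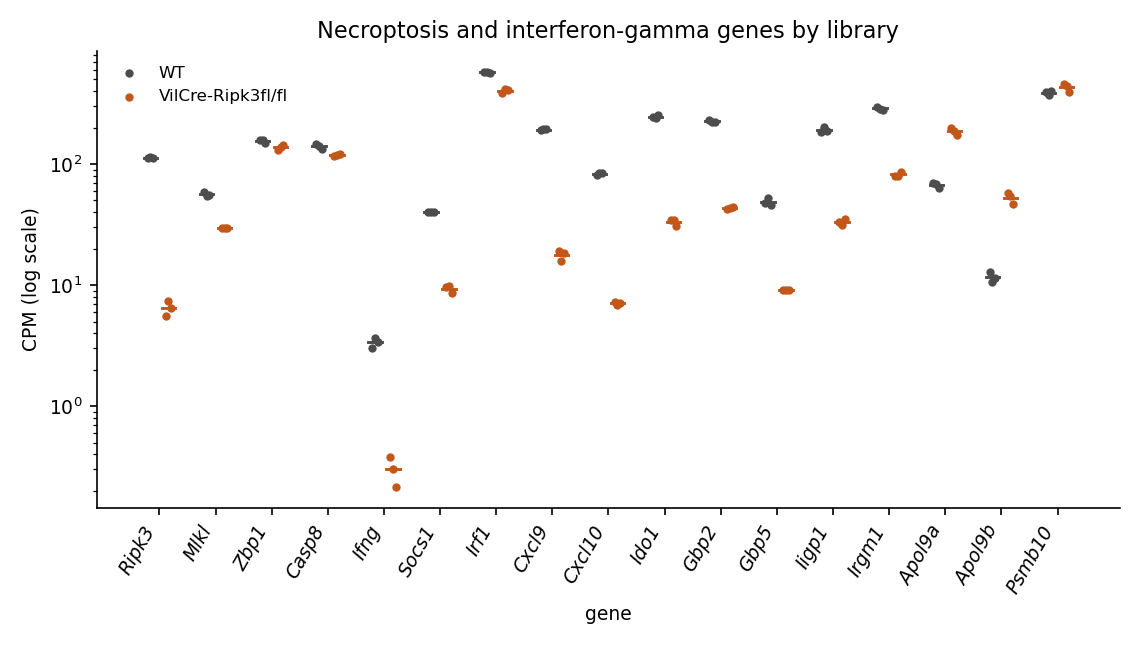
CPM (log axis) of necroptosis and interferon-gamma genes in the 3 WT and 3 VilCre-Ripk3fl/fl libraries, 1 point per library with a bar at the group mean. Ripk3, Cxcl9, Cxcl10 and the Gbp genes lie well below WT, Zbp1 and Casp8 lie close to it, and Apol9a and Apol9b lie above it.

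Type I interferon-stimulated genes did not share the uniform direction of the interferon-gamma targets. Of 32, 14 fell and 7 rose (median -0.15), and 4 rose without VilCre-Ripk3fl/fl replicate 2. Ifit2 was at 121, 121 and 118 CPM in WT and 12.9, 16.4 and 13.7 in VilCre-Ripk3fl/fl (8.34-fold lower, adjusted p = 3.58e-21), while its family member Ifit1 was at 119 ± 3.49 and 111 ± 5.60 CPM and did not pass (adjusted p = 0.124). Usp18, an inhibitor of the type I receptor, fell 1.92-fold, whereas the RNA-binding synthetases Oas1a and Oas1g rose 1.32-fold and 1.41-fold and the mitochondrial Ifi27 rose 2.55-fold. Antigen presentation genes of either class moved both ways. For class I and peptide loading 17 of 28 fell and 8 rose (median -0.18): the transactivator Nlrc5 fell 2.39-fold, the peptide transporter Tap1 1.65-fold and the non-classical H2-Q7 2.04-fold, while H2-T3, the thymus leukaemia antigen of intestinal epithelium, rose 1.73-fold and H2-K1 did not pass (adjusted p = 0.0971). Without WT replicate 2, 4 of the 28 rose, and without VilCre-Ripk3fl/fl replicate 1, 5 rose. The H2-Q genes are close copies and their counts are uncertain. For class II, 5 of 12 rose and 4 fell (median 0.12). H2-Ab1 was at 708, 688 and 695 CPM in WT and 988, 958 and 873 in VilCre-Ripk3fl/fl (1.35-fold higher, adjusted p = 2.51e-08), and H2-Aa rose 1.29-fold, while their transactivator Ciita fell 1.68-fold (adjusted p = 6.18e-09).

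Inflammatory mediators were lower as groups. Of 27 NF-kappaB and TNF response genes, 22 fell and 4 rose (median -0.98). Tnf was at 11.9, 11.5 and 11.8 CPM in WT and 1.02, 0.877 and 2.51 in VilCre-Ripk3fl/fl (7.98-fold lower, adjusted p = 3.18e-09), and the adhesion molecule Icam1 at 46.4, 44.3 and 46.5 and 7.11, 9.27 and 6.53 (5.99-fold lower). Pigr, which carries IgA across the epithelium, was the member with the largest rise, from 3233 ± 6.03 to 6736 ± 568 CPM (SD, n = 3). Of 32 chemokines, 19 fell and 5 rose (median -0.63). The ligand of CCR6, Ccl20, which epithelium makes, was at 45.5, 48.7 and 48.2 CPM in WT and 3.93, 4.01 and 3.23 in VilCre-Ripk3fl/fl (12.8-fold lower, adjusted p = 1.53e-17), and Cxcl16 fell 1.71-fold. Ccl25 and Ccl28, epithelial ligands that attract gut-homing lymphocytes and plasma cells, rose 1.68-fold and 1.58-fold (adjusted p = 1.25e-12 and 2.58e-07). The chemokine receptors had 5 lower (31.2%) and 3 higher (18.8%) of 16, against 28.4% and 27.2% over all genes, and are not read as a group fall. Only 1 was higher where either WT replicate 2, WT replicate 3 or the first VilCre-Ripk3fl/fl library was left out. Cxcr3, a receptor of inflammatory T cells, fell 4.22-fold and Cx3cr1 rose 1.52-fold. Interleukins and related cytokines had 13 lower and 4 higher of 23 (median -0.49). The alarmin Il33 fell 2.46-fold and the receptor antagonist Il1rn 4.69-fold. Il22ra2, a soluble receptor that captures interleukin-22, was near the floor in WT (0.0601, 0 and 0 CPM) and present in each VilCre-Ripk3fl/fl library (1.35, 1.53 and 1.47 CPM, adjusted p = 4.17e-06).

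Leukocyte markers moved by lineage. T cell and cytotoxic lymphocyte markers fell in 27 of 41 cases and rose in 3 (median -0.85). Of the defining T cell markers, Cd3d was at 2.58, 3.25 and 4.13 CPM in WT and 2.03, 1.45 and 1.44 in VilCre-Ripk3fl/fl, Cd3e fell 1.57-fold and Cd3g did not pass (adjusted p = 0.139). Of the effector genes, the pore-forming Prf1 fell 11.7-fold, from 2.83 ± 0.219 to 0.242 ± 0.0396 CPM, and the granzymes Gzma and Gzmb fell 1.80-fold and 1.71-fold. Gzmb lies within 10 Mb of Ripk3 on chromosome 14, a region described below. Itgae, the integrin of intraepithelial lymphocytes, rose 2.30-fold, and Foxp3, of regulatory T cells, was at 0, 0.0651 and 0.139 CPM in WT and 0.508, 0.267 and 0.215 in VilCre-Ripk3fl/fl, values near the floor whose call (adjusted p = 0.0477) was lost without WT replicate 1 (0.185) and without any of 4 other libraries. Monocyte and macrophage markers had 19 lower and 4 higher of 27 (median -0.65). Chil3 was at 23.7, 22.1 and 23.4 CPM in WT and 0.930, 0.649 and 0.144 in VilCre-Ripk3fl/fl (40.1-fold lower). Arg1 fell 12.6-fold and the lysozyme Lyz2 2.19-fold. Genes of resident macrophages went both ways. Mertk, Cx3cr1 and Adgre1 rose by 1.33-fold (Adgre1) to 1.52-fold (Cx3cr1), the call of Adgre1 being lost without WT replicate 1 (adjusted p = 0.102) or 2 (0.104). Cd163, Mrc1 and C1qc fell (log2 fold change -1.91, -0.48 and -0.39), and Timd4 and Folr2 did not pass (adjusted p = 0.0591 and 0.743). Neutrophil markers had 11 lower and none higher of 17 (median -2.53). Ly6g was at 3.94, 2.60 and 2.71 CPM in WT with 0 counts in every VilCre-Ripk3fl/fl library, at least 26.5-fold lower when each of these is set to 3 counts, and S100a9 and S100a8, chosen after their values were seen, fell 12.5-fold and 12.4-fold.

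The joint list of mast cell and eosinophil markers went the other way, with 12 of 17 higher and 1 lower (median 1.62). Among mast cell proteases, Mcpt1 was at 10.9, 10.9 and 11.5 CPM in WT and 54.8, 58.9 and 50.05 in VilCre-Ripk3fl/fl (4.91-fold higher, log2 fold change 2.29, SE 0.0799, adjusted p = 3.77e-18). Mcpt2 rose 5.67-fold and Mcpt4 10.8-fold. The eosinophil lectin Siglecf, also of tuft cells, rose 3.71-fold, and the histamine-forming enzyme Hdc fell 2.17-fold. Of the other eosinophil genes, the receptor Ccr3 rose at a low level (log2 fold change 1.62). Prg2 and Ear2 did not pass (adjusted p = 0.256 and 0.15), and Epx, Ear1 and Ear6 were too low to be tested. The list therefore does not show a rise of eosinophil genes as a group. The Mcpt genes lie within 10 Mb of Ripk3 on chromosome 14, a region described below. Dendritic cell markers had 6 higher and 2 lower of 14 (median 0.35). Clec9a of cross-presenting cells rose 2.05-fold, but Xcr1 and Batf3, also of these cells, did not pass (adjusted p = 0.593 and 0.921). Irf8, which is also among the interferon-gamma targets, fell (log2 fold change -0.95). B and plasma cell markers had 4 higher and 5 lower of 18 (3 lower without WT replicate 1 or VilCre-Ripk3fl/fl replicate 2), shares below those of all genes, and Igha did not pass (801 ± 28.9 and 739 ± 79.6 CPM, adjusted p = 0.144). Erythroid genes, a measure of blood, had 2 higher and 1 lower of 9.

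**Figure D4:**
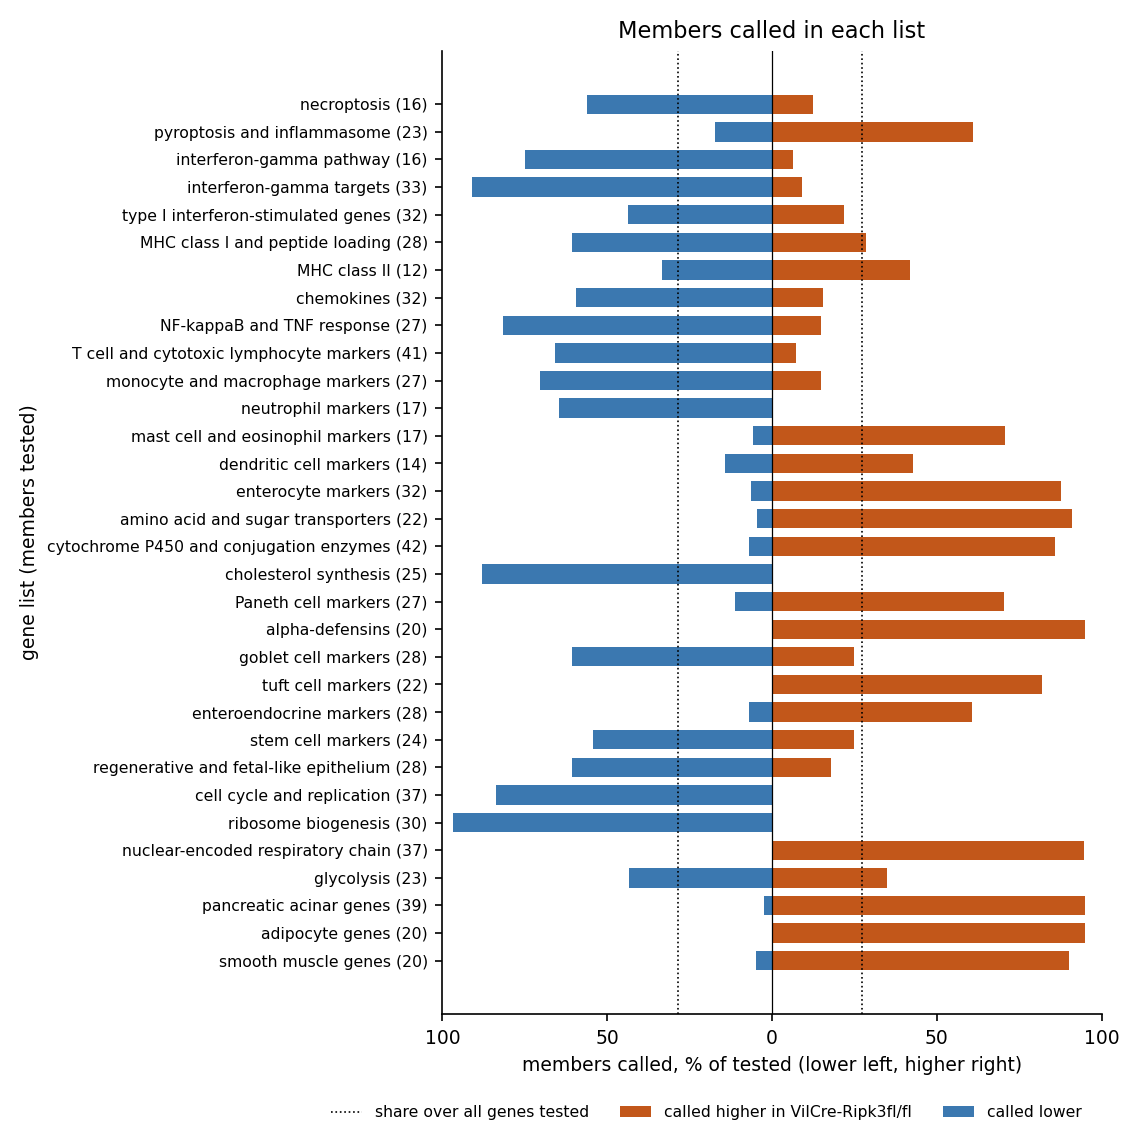
Share of tested members called higher (right) and lower (left) in VilCre-Ripk3fl/fl for 32 gene lists, as percent of members tested, with the number tested in brackets and dotted lines at the shares over all genes, 27.2% higher and 28.4% lower. Interferon-gamma targets, NF-kappaB genes, cholesterol synthesis, cell cycle and ribosome biogenesis extend furthest to the left, and the defensin, respiratory chain, transporter, pancreatic acinar, adipocyte and smooth muscle lists furthest to the right.

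Absorptive enterocyte genes were higher. Of 32 markers, 28 rose and 2 fell (median 0.70), and of 22 amino acid and sugar transporters 20 rose and 1 fell (median 0.74). The brush border peptidase Dpp4 was at 154, 150.3 and 146 CPM in WT and 504, 530.2 and 571 in VilCre-Ripk3fl/fl (3.56-fold higher, log2 fold change 1.83, SE 0.05, adjusted p = 1.92e-20). The trehalase Treh rose 2.50-fold, adenosine deaminase Ada 2.57-fold and apolipoprotein Apoc3 3.34-fold. The nucleoside transporter Slc28a1 was at 12.5, 10.5 and 10.6 CPM in WT and 95.5, 95.6 and 93.3 in VilCre-Ripk3fl/fl (8.48-fold higher), and Slc5a11, Slc36a1 and Slc7a8 rose 4.01-fold, 2.96-fold and 2.62-fold. The fructose transporter Slc2a5 fell 1.17-fold (adjusted p = 4.78e-04), and sucrase Sis and alkaline phosphatase Alpi did not pass (0.174 and 0.0660). Vil1, the brush border protein whose promoter drives Cre here, rose 1.17-fold.

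Lipid genes divided, with absorption mostly higher and cholesterol synthesis lower. Of 28 genes of lipid absorption and chylomicrons, 20 rose and 5 fell (median 0.42). The cholesterol importer Npc1l1 was at 292, 284 and 274 CPM in WT and 617, 643 and 631 in VilCre-Ripk3fl/fl (2.22-fold higher), while Dgat2, which forms triglyceride, fell 1.63-fold. The list holds Clps and Pnliprp2, which pancreas also makes, and without acinar, islet and adipocyte genes 18 rose and 5 fell. Cholesterol synthesis genes fell in 22 of 25 cases with none higher (median -0.77), with falls of 2.03-fold in the regulator Srebf2 (adjusted p = 1.22e-14) and 2.60-fold in Lss. Srebf2 was at 254, 251 and 254 CPM in WT and 117, 130.3 and 127 in VilCre-Ripk3fl/fl. Fatty acid oxidation genes had 18 higher and 6 lower of 25 (median 0.28): Hadh rose 1.73-fold and the pantetheinase Vnn1 4.39-fold, while Cpt1a and Acadl fell 1.67-fold and 2.03-fold. Of 12 bile acid genes 6 rose and 2 fell, with the exporter subunit Slc51a rising 2.34-fold and the bile acid receptor Nr1h4 falling 1.66-fold.

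Detoxification genes rose more widely. Of 42 cytochrome P450 and conjugation genes, 36 rose and 3 fell (median 1.15). Cyp3a11, a main drug-oxidising P450 of mouse gut and liver, was at 27.9, 26.6 and 29.7 CPM in WT and 198, 207 and 239.8 in VilCre-Ripk3fl/fl (7.66-fold higher, log2 fold change 2.94, SE 0.0666, adjusted p = 1.35e-21). The fatty acid hydroxylase Cyp4v3 rose 4.21-fold, Cyp2d26 3.31-fold and the glutathione transferase Gstm3 4.58-fold. Cyp3a44 had 0 counts in all WT libraries and was at 2.79, 1.79 and 2.62 CPM in VilCre-Ripk3fl/fl, at least 24.7-fold higher, although it is a close copy of other Cyp3a genes. The lower members were Cyp1b1 (3.16-fold), the electron donor Por (1.46-fold) and the efflux pump Abcb1a (1.57-fold). Retinoid genes had 14 higher and 2 lower of 19 (median 0.47), with Lrat, which stores retinol as esters, rising 4.57-fold, Adh1 2.94-fold and the carotene oxygenase Bco2 2.39-fold.

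Alpha-defensins had the highest median of the epithelial lists. These genes, for antimicrobial peptides of Paneth granules, rose in 19 of 20 cases with none lower (median 4.66), and their summed level was 257 to 263 CPM in WT and 3852 to 4486 in VilCre-Ripk3fl/fl. Defa24 was at 114, 105 and 112 CPM in WT and 1339, 1166 and 1169 in VilCre-Ripk3fl/fl (11.1-fold higher), Defa30 at 21.3, 22.5 and 21.2 and 582, 483 and 470.2 (23.6-fold), and Defa5 at 4.09, 4.36 and 3.68 and 112, 100.1 and 102 (25.9-fold, log2 fold change 4.69, SE 0.0919, adjusted p = 2.18e-23). Leaving aside Defa37, the folds of the called members ranged from 9.71-fold in Defa3 to 106-fold in Defa29, which had 57 counts in all of WT. Defa37 was the most uneven, at 199, 56.2 and 96.5 CPM in VilCre-Ripk3fl/fl replicates 1 to 3 against 0, 0.390 and 0.347 in WT, and it was at 0.377, 0 and 0 CPM in Ripk3-KO. Its adjusted p was 2.44e-04, and 0.144 with limma-voom. Of the 20, Defa35 did not pass (0.247 ± 0.282 and 0.834 ± 0.285 CPM, adjusted p = 0.0668). The genes are near-identical neighbours on chromosome 8, so values of single members are uncertain.

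Among other Paneth cell markers the direction depended on the gene. Of all 27 members, which include some defensins, 19 rose and 3 fell (median 1.68); without the acinar, islet and adipocyte genes 17 rose and 3 fell. With VilCre-Ripk3fl/fl replicate 1 left out, 5 of the 27 fell. The lysozyme Lyz1 was at 309, 283 and 299 CPM in WT and 977, 938 and 946 in VilCre-Ripk3fl/fl (3.21-fold higher), the ribonuclease Ang4 at 9.32, 9.99 and 7.84 and 201, 193 and 189.7 (21.5-fold), and the pentraxin Mptx2 at 4.21, 3.42 and 3.23 and 143, 138 and 145 (39.2-fold). Itln1, a lectin that binds microbial sugars, rose 5.36-fold. The protease that activates prodefensins, Mmp7, went down, from 150.4, 149.6 and 148 to 55.6, 53.7 and 49.1 CPM (2.83-fold, log2 fold change -1.50, SE 0.0612, adjusted p = 1.12e-16), as did the phospholipase Pla2g2a (2.78-fold) and the sensor Nod2 (1.64-fold). Spink4 did not pass (adjusted p = 0.397). The defining pancreas markers rose 5.91-fold (Ctrb1) to 9.91-fold (Pnlip) beside these. The part of pancreas in the Paneth list was not tested, since the count without acinar genes only leaves members out. Epithelial antimicrobial and acute-phase genes split, with 15 higher and 13 lower of 31: Reg3b rose 1.38-fold to 13149.9 ± 964 CPM, whereas Saa3 fell 21.9-fold, Lcn2 5.76-fold and Nos2 2.58-fold.

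**Figure D5:**
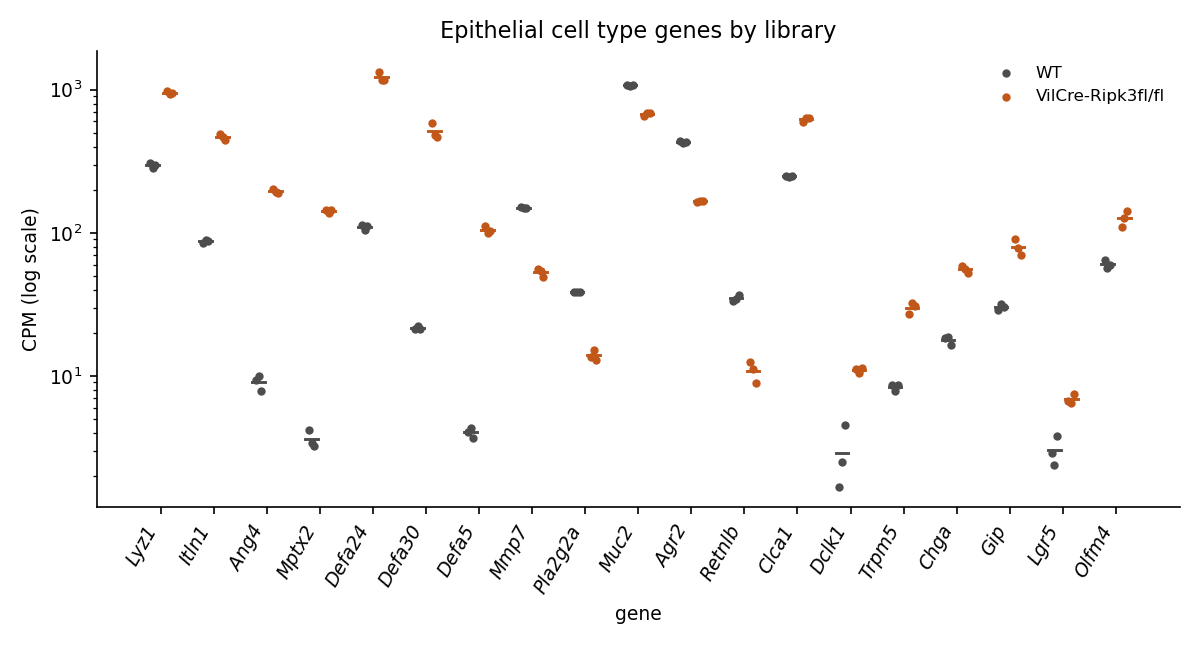
CPM (log axis) of Paneth, goblet, tuft, enteroendocrine and stem cell genes in the 3 WT and 3 VilCre-Ripk3fl/fl libraries, 1 point per library with a bar at the group mean. The Paneth genes Lyz1, Itln1, Ang4, Mptx2 and the defensins lie above WT, while Mmp7, Pla2g2a, Muc2, Agr2 and Retnlb lie below it.

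Secretory lineages did not move as a block. Among 28 goblet cell markers 17 fell and 7 rose (median -0.41). The mucin Muc2 was at 1083, 1065 and 1069.7 CPM in WT and 654, 687 and 687 in VilCre-Ripk3fl/fl (1.59-fold lower, adjusted p = 1.57e-12), Agr2, which folds mucin, fell 2.59-fold and the resistin-like Retnlb 3.20-fold, while Clca1 rose 2.50-fold and Tff3 did not pass (adjusted p = 0.264). Klk1, also made by pancreas, rose 4.31-fold. The secretory-lineage factors Atoh1 and Spdef fell 2.12-fold and 1.78-fold. Tuft cell markers rose in 18 of 22 cases with none lower (median 1.91): the ion channel Trpm5 was at 8.60, 7.91 and 8.67 CPM in WT and 27.0, 32.2 and 31.0 in VilCre-Ripk3fl/fl (3.58-fold higher, log2 fold change 1.84, SE 0.104, adjusted p = 8.90e-14), and Sh2d6 and Spib rose 12.3-fold and 5.06-fold. Enteroendocrine markers had 17 higher and 2 lower of 28 (median 0.77): the incretin Gip was at 28.8, 31.7 and 30.2 CPM in WT and 90.9, 78.5 and 70.0 in VilCre-Ripk3fl/fl (2.64-fold higher), chromogranin Chga rose 3.12-fold and neurotensin Nts 15.9-fold. Islets also make several of these, Chga among them, and islet genes rose in 4 of 6 cases, while Gip and Nts are hormones of the gut.

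Crypt stem cell markers split in a way that the list's median of -0.29 does not show, with 6 of 24 higher and 13 lower. Lgr5, the receptor that marks cycling stem cells, was at 2.92, 2.38 and 3.81 CPM in WT and 6.72, 6.49 and 7.53 in VilCre-Ripk3fl/fl (2.28-fold higher, adjusted p = 1.70e-05), Olfm4 was at 64.5, 56.9 and 59.4 and 111, 128 and 141 (2.10-fold higher), and Smoc2 and the Wnt target Axin2 rose 1.32-fold and 1.52-fold. Lower members were Cd44 (2.43-fold), Ephb2 (1.52-fold), Slc12a2 (1.44-fold) and Myc (1.53-fold), which other crypt cells also express. Genes of regenerative or fetal-like epithelium, which injured crypts switch on, had 17 lower and 5 higher of 28 (median -0.92). Ly6a, the mouse Sca-1 antigen, was at 539, 543 and 542 CPM in WT and 71.3, 72.4 and 75.7 in VilCre-Ripk3fl/fl (7.40-fold lower, log2 fold change -2.89, SE 0.0526, adjusted p = 5.62e-24), S100a6 was at 244, 241 and 243 and 42.9, 37.7 and 39.3 (6.06-fold lower), and Anxa1 fell 4.67-fold. Anxa10, an annexin known from stomach, was at 56.4, 61.1 and 58.7 and 0.592, 1.18 and 1.90 CPM (47.9-fold lower). Clu, a marker of revival stem cells in mouse, rose 2.92-fold instead, and Sprr2a1 rose 2.10-fold. Ly6a also responds to interferon, and T cells express it.

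Proliferation and biosynthesis genes were lower. Of 37 cell cycle and replication genes 31 fell and none rose (median -0.59): the ribonucleotide reductase subunit Rrm2 was at 108, 104 and 100.1 CPM in WT and 24.4, 25.3 and 32.3 in VilCre-Ripk3fl/fl (3.80-fold lower), and cyclin Ccnb1 and the topoisomerase Top2a fell 2.04-fold and 1.57-fold. Ribosome biogenesis genes fell in 29 of 30 cases with none higher (median -0.59), with nucleolin Ncl at 649, 664 and 658 CPM in WT and 379, 365 and 367 in VilCre-Ripk3fl/fl (1.77-fold lower) and Npm1 falling 1.60-fold. Respiratory chain genes rose: 35 of 37 nuclear-encoded members with none lower (median 0.36), with the complex I subunits Ndufb10 and Ndufb3 up 1.79-fold and 1.56-fold, and 11 of 13 mitochondrially encoded members with none lower (median 0.39), with mt-Co3 up 1.4-fold. Glycolysis genes had 8 higher and 10 lower of 23 (median -0.10). Those for glucose entry fell most, the glucose transporter Slc2a1 from 58.6, 56.1 and 54.9 to 17.0, 19.3 and 17.4 CPM (3.16-fold) and the hexokinases Hk1 and Hk2 by 3.50-fold and 2.72-fold, while Pck1, of gluconeogenesis, rose 2.59-fold. Hif1a, the hypoxia-inducible factor, was at 176, 161 and 179 CPM in WT and 46.7, 58.8 and 58.6 in VilCre-Ripk3fl/fl (3.14-fold lower, adjusted p = 3.02e-12). In the antioxidant and iron list, with 11 higher and 12 lower of 29, the metallothionein Mt2 and haem oxygenase Hmox1 fell 6.52-fold and 4.98-fold and catalase Cat rose 2.17-fold.

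Tight junction and adhesion genes had 7 higher and 8 lower of 30, shares near those of all genes, and 4 rose without WT replicate 2. The pore-forming claudin Cldn2 was an exception in size, at 321, 322 and 316 CPM in WT and 78.6, 81.8 and 87.8 in VilCre-Ripk3fl/fl (3.87-fold lower, log2 fold change -1.95, SE 0.0520, adjusted p = 1.11e-20), and Cldn15, another cation-pore claudin of small intestine, rose 1.94-fold. Tjp1, a scaffold protein of the junction, fell 1.51-fold. Mylk, which smooth muscle also expresses, rose 2.12-fold.

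The genes with the largest differences of all include several at or near 0 in a group. In VilCre-Ripk3fl/fl, Rsc1a1 and the granzymes Gzmd, Gzme and Gzmf, of activated killer lymphocytes, were at 0 to 2 counts over all libraries, with WT values of 1.51 ± 0.0537 (Gzmd), 1.37 ± 0.577 (Gzme) and 1.61 ± 0.215 CPM (Gzmf). Rsc1a1 lies within Ddi2, so its counts are uncertain. The tubulin Tuba3b went from 17.1, 14.5 and 14.7 CPM in WT to 0.0846, 0 and 0.0718 in VilCre-Ripk3fl/fl, and lactoperoxidase Lpo from 2.69 ± 0.165 to 0.0239 ± 0.0414. Of the rises, Tff2, a trefoil peptide of duodenal glands and stomach, was at 3.79, 3.03 and 4.3 CPM in WT, 48.7, 44.5 and 42.3 in VilCre-Ripk3fl/fl and 0.458, 0.264 and 0.142 in Ripk3-KO, and the phospholipase Pla2g4c rose 15.8-fold. By gain in CPM, the largest rises were in the chylomicron apolipoprotein Apoa4 (from 6839 ± 34.0 to 13032 ± 1075), Sprr2a2, Apoa1, Reg3b and Pigr, beside pancreatic amylases and Ctrb1. The largest losses were in the elongation factor Eef1a1 (from 4904 ± 55.9 to 3760.2 ± 53), the nuclear long non-coding RNA Neat1 (from 1829.6 ± 46.8 to 1068 ± 45.4), the actin-binding Tmsb10, Lypd8, Ubd and the actins Actg1 and Actb.

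Within 10 Mb of Ripk3 on chromosome 14, 201 genes were tested, of which 67 rose and 50 fell (58.2%), close to the share over all genes. Of the 201, 17.4% were called with at least 2-fold change, against 14.7% over all genes. Genes of this region that were described with their values above are Ang4, Gata4, Gzmb, Mcpt1, Mcpt2, Mcpt4, Slc7a8 and the granzymes Gzmd, Gzme and Gzmf. Whether DNA flanking the altered Ripk3 gene comes from another strain is not given in the sources used here, and its part in these values was not tested. Besides Ripk3, lower genes here included Phf11a, Phf11b and Phf11d (4.55-fold, 4.12-fold and 2.51-fold), which are close copies of each other. The ribonucleases Ang and Rnase1, which pancreas also makes, rose 2.11-fold and 7.37-fold.

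In a contrast with Ripk3-KO that does not use the WT means, although WT libraries entered the filter, scaling and spread, VilCre-Ripk3fl/fl differed in 5244 of the 16539 genes (31.7%). Sex and pancreas and fat content differ between these groups: the summed level of 4 Y-linked genes was 1.00 to 1.35 CPM in Ripk3-KO and 115 to 128 in VilCre-Ripk3fl/fl, against 133 to 135 in WT. These differences cannot be told apart from the kind of deletion. Both deletions were compared with the same WT libraries, so their values are only given side by side. Of the interferon-gamma targets, Cxcl9 was at 43.6, 37.4 and 39.0 CPM in Ripk3-KO (log2 fold change -1.17, adjusted p = 6.11e-13) and Gbp2 at 113, 112 and 108 (-1.35, 2.21e-17), both above their VilCre-Ripk3fl/fl values. Ifng at 0.323, 0.581 and 0.472 CPM did not differ by this test (adjusted p = 0.293), and neither did Mlkl at 33.0, 30.4 and 27.5 (0.722), which does not show that they are alike. Paneth genes described above were higher with the epithelial deletion, with Ang4 at 28.9, 24.1 and 25.4 CPM in Ripk3-KO (log2 fold change 2.90, adjusted p = 2.75e-21), Mptx2 at 45.9, 40.3 and 37.7 (1.78, 5.75e-17) and Defa24 at 378, 314 and 319.7 (1.86, 1.26e-12). Reg3b was at 2530.2, 2098 and 2218 CPM in Ripk3-KO, below WT and VilCre-Ripk3fl/fl, and Il18 at 33.2, 28.0 and 29.5, near WT. The gasdermin Gsdmc4 at 106, 94.9 and 103 CPM and Cyp3a11 at 217, 214 and 205 lay near their VilCre-Ripk3fl/fl values (adjusted p = 0.258 and 0.828).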

How the data were processed

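RNA of mouse small intestine was sequenced in 9 libraries, and 6 are compared here. The deposited table gives counts of reads per gene, not normalized, and TPM values made by the authors, of which the counts were tested. Per the submitters' processing notes, build mm10 was used with STAR, HTSeq, Trimmomatic and DESeq2, in roles not given. Versions, settings and use of strand are not given in the sources used here, so counts of overlapping and antisense genes, like those of near-identical copies, are uncertain. Of 48708 genes 23245 had 0 counts in all libraries, and 1 line was not analysed.

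Genes were kept by filterByExpr by genotype and fitted with edgeR 4.0.16 (TMM, robust quasi-likelihood test, R 4.3.3) in all 9 libraries with a mean per genotype and 6 residual degrees of freedom. Two-sided p-values of VilCre-Ripk3fl/fl minus WT were adjusted by Benjamini-Hochberg over all genes tested. SE is the log2 fold change divided by the root of its F value. The code was tested on simulated data. Libraries of a genotype differed beyond sampling noise (chi-square per gene 3.57 to 11.97), and each was kept as a separate library. This does not tell separate animals from separate preparations of 1 animal. Groups and gene lists were chosen with earlier results of these data known. Named genes are 10 set genes, the 12 largest rises and falls by fold and by CPM, up to 4 higher, 4 lower and 2 uncalled members of each list, and genes near Ripk3. Alternatives were other scalings, filters, tests (DESeq2 1.42.0, limma 3.58.1), the replicate block, the compared libraries alone, removal of pancreas and adipocyte genes, and each library left out. Some named genes are not reported here. Promoters came from RefSeq (GRCm38.p6). Floors cover counting error only.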

Additional observations from a re-analysis of the deposited data

How the results depend on the processing

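The 5 counts of called genes stayed within 1.5 times the reported value under all 17 alternatives. With another scaling, filter, test or set of libraries, 8727 to 9395 genes were called, and 8315 to 8861 when a library was left out. Leaving out a library gave 4025 to 4385 higher and 4240 to 4476 lower genes, and 1337 to 1537 and 887 to 948 by at least 2-fold. Upper-quartile scaling moved the median log2 fold change of all genes most, by 0.04, and gave 4885 higher and 4267 lower genes. DESeq2 called 9198 genes, with 5 left without an adjusted p, and limma-voom 9036. The replicate numbers did not pair the libraries: correlations of same-numbered deviations were -0.0126 to -0.00687, and with the replicate block 9247 genes were called, 4481 higher and 4766 lower, 1456 and 939 of them by at least 2-fold. Of the genes of the text, 271 were followed through the alternatives. Of these, 18 changed their side of the threshold under some alternative and no called gene reversed. The fitted changes of the uncalled Cflar, Ddi2, Fabp6, Pdcd1 and Stat4 took either sign. Those called as reported and lost under some alternative were Adgre1, Defa37, Foxp3, Psmb10, Rad9b, Tbx21 and Zbp1. Leaving out a library also moved small list counts by 1 gene: the lower enterocyte genes to 1 without any but VilCre-Ripk3fl/fl replicate 3, the lower enteroendocrine genes to 1 without WT replicate 1, the higher stomach genes to 1 without WT replicate 1 or 2 or VilCre-Ripk3fl/fl replicate 3, the higher erythroid genes to 1 without WT replicate 2 or VilCre-Ripk3fl/fl replicate 1 or 2, the lower erythroid genes to 2 without WT replicate 3, the lower ileal genes to 1 without VilCre-Ripk3fl/fl replicate 1, and the higher cholesterol and lower mitochondrially encoded genes to 1 without VilCre-Ripk3fl/fl replicate 3. For the liver genes, median log2 fold change reversed to -0.06756 with only the 6 libraries compared, and the cause was not tested. Precision is limited by 3 libraries per genotype and, for genes near 3 counts per library, by depth.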

Other observations

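Several groups outside the comparisons above are given here, to be read against the shares over all genes, 27.2% higher and 28.4% lower. Some of them lie near these shares. Circadian clock genes had 7 higher and 10 lower of 19, with Arntl, the activator of the loop, at 27.2, 24.4 and 29.0 CPM in WT and 40.2, 44.1 and 44.6 in VilCre-Ripk3fl/fl (1.60-fold higher) and the output and repressor genes Tef, Nr1d2 and Per1 2.95-fold, 2.17-fold and 1.84-fold lower. The hour of sampling is not given. Nerve and glia genes had 11 higher and 3 lower of 21, among them the glial factor Sox10 (3.81-fold higher) and the neuropeptide Vip (1.73-fold lower), but 5 rose without WT replicate 1 and 4 without VilCre-Ripk3fl/fl replicate 1. Endothelial markers had 10 higher and 5 lower of 22, and the lower ones include the leukocyte adhesion genes Icam1 and Vcam1 (5.99-fold and 1.72-fold). Without WT replicate 1, 2 endothelial markers fell, and 3 without WT replicate 3 or VilCre-Ripk3fl/fl replicate 1. Of 32 fibroblast and matrix genes, 9 rose and 8 fell, shares near or below those of all genes. Among them were the matrix proteases Mmp10 and Mmp13 2.29-fold and 2.85-fold lower, Grem1, a BMP antagonist made by stromal cells, 2.06-fold lower and Fbln1 2.38-fold higher. The Wnt and Notch list had 9 higher (27.3%) and 8 lower (24.2%) of 33, shares near or below those of all genes. In it Wnt4 rose 4.45-fold and Nkd1, a Wnt feedback gene, 2.35-fold. Of 30 genes of the unfolded protein response 7 rose and 15 fell, with Asns and Herpud1 1.97-fold and 1.60-fold lower and Ddit3 and Atf3 2.31-fold and 2.25-fold higher. In the eicosanoid list, with 8 higher (34.8%) and 6 lower (26.1%) of 23, Alox5 rose 4.24-fold and Alox15 fell 4.57-fold. Complement had 7 higher and 9 lower of 20, with C3 3.06-fold lower and Cd55, which protects cells from complement, 2.81-fold higher.

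Further lists bear on position along the gut and on lymphocytes within the epithelium. Of 15 genes known as ileal in mouse, 11 rose and none fell (median 1.23), with Ces2e 2.39-fold and Mep1a 6.55-fold higher, although the bile acid genes Fabp6 and Slc51b did not pass. Ces2e and Mep1a are also on the detoxification and enterocyte lists, which rose. The defining ileal markers Fabp6 and Slc10a2 were low in WT (1.02 and 0.341 CPM), and Slc10a2 did not pass either (adjusted p = 0.795). Position along the gut was not tested. Duodenum and jejunum genes had 9 higher and 3 lower of 17, with lactase Lct 2.70-fold higher and the regional factor Pdx1 1.37-fold lower. Of 15 large intestine genes, 9 rose and 5 fell (3 without any of 5 libraries, all but VilCre-Ripk3fl/fl replicate 3), with the carbonic anhydrase Car4 5.08-fold and the chloride exchanger Slc26a3 1.43-fold higher. The summed level of the list was lower, at 1613.5 to 1625.5 CPM against 1945 to 1963 in WT. Its defining markers went both ways in total counts, with Car1 at 48 in WT and 8 in VilCre-Ripk3fl/fl, Hoxb13 at 41 and 152 and Aqp8 at 48 and 250. Of 23 butyrophilin-like and intraepithelial lymphocyte genes 10 rose and 5 fell (3 without WT replicate 1 or VilCre-Ripk3fl/fl replicate 3): Btnl1 and Btnl2, epithelial genes of a family that maintains gamma-delta T cells in mouse gut, rose 1.43-fold and 1.4-fold, and the interleukin-15 receptor chain Il15ra fell 1.42-fold. Immediate-early genes had 12 higher and 7 lower of 28, with Egr1 and Fos 2.24-fold and 1.29-fold lower and Fosb and Klf4 6.86-fold and 1.53-fold higher. Liver genes had 3 higher and 2 lower of 8, and genes of Peyer's patches and germinal centres 3 and 4 of 9, with 2 lower without WT replicate 2 or VilCre-Ripk3fl/fl replicate 3.

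Some genes varied widely among the VilCre-Ripk3fl/fl libraries and were picked for that after their values were seen. Of the tested genes with a mean of at least 5 CPM in VilCre-Ripk3fl/fl, 15 had an SD above 50% of the mean there. The same count for genes with at least 5 CPM in WT was 4. The skin keratin Krt10 was at 27.7, 17.2 and 2.65 CPM in VilCre-Ripk3fl/fl replicates 1 to 3 and at 2.25, 13.6 and 3.61 in WT, values that overlap. Others were below 5 CPM in WT: the T cell checkpoint receptor gene Pdcd1 was at 1.18, 1.45 and 19.7 CPM in VilCre-Ripk3fl/fl, the keratin Krt14 at 11.1, 5.91 and 0.215 and Rad9b at 35.3, 5.99 and 13.6.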
